A study of Mus musculus with 9 samples.

Results

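The imprinted Dlk1-Dio3 locus of mouse chromosome 12 carries one of the largest groups of miRNA genes in mammals, and 59 of the 650 miRNAs on the array used here were chosen from it by name. They are all array names with a miRNA number that belongs to the locus, with any letter or arm suffix and without star names, and they come from 48 hairpins. RNA was measured in 9 cultures of primary hippocampal neurons from C57BL/6 mice, prepared on postnatal day 1 and grown for 10 days in vitro, with 1 one-colour Agilent miRNA array per culture. The 3 control cultures were left untreated. The 3 NMDA cultures received 20 μM N-methyl-D-aspartate, which when added to the bath also reaches the NMDA receptors outside synapses, and the 3 bicuculline cultures received 50 μM bicuculline, which blocks GABA-A receptors and sets off bursts of synaptic activity. The labels give both treatments as 4 h, whereas the methods describe a brief NMDA exposure followed by washing. Replicates came from independent cell preparations, and the labels name no genetic change. Because whole cultures were measured, fewer cells of a type and less RNA per cell cannot be told apart.

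The locus miRNAs are made only from the maternally inherited chromosome, where the Meg3, Rtl1 antisense, Rian and Mirg transcripts carry them in one direction. Drosha and Dicer cut each hairpin out of such a transcript, and the base sequence of the short mature strand, above all its seed at the 5′ end, decides which mRNAs it can pair with. In neurons the miR-379 to miR-410 hairpins, which lie in and around Mirg, are known as a cluster transcribed by Mef2 after activity, with members such as miR-134 acting on dendrites and spines. The comparison of NMDA with bicuculline asks whether toxic and synaptic signalling act differently on miRNA levels.

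The mature sequences below are those of the only locus miRNA that passed the test, miR-494, and of the miRNAs that lie on either side of it in the same run of hairpins, together with miR-433, the locus miRNA with the steepest lower value after NMDA. They are written 5′ to 3′ with the seed, bases 2 to 8, in capitals, and come from RefSeq on the GRCm38.p6 build. The array names miR-494, miR-329, miR-543, miR-495 and miR-433 give no arm. The 3p arm is shown for each, which for miR-494 was taken from the study's own listing and for the others from the usual meaning of the plain name.
miR-323-3p: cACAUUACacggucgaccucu
miR-329-3p: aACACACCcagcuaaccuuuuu
miR-494-3p: uGAAACAUacacgggaaaccuc
miR-543-3p: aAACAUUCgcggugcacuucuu
miR-495-3p: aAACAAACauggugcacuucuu
miR-433-3p: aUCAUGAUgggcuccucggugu

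The miR-494 strand lies at chr12:109715367-109715388 on the plus strand, within the hairpin gene Mir494. The hairpin gene before it in the order of the locus is Mir329 and the one after it is Mir679, followed after others by Mir543 and Mir495. All 6 seeds shown are distinct. No other of the 1679 mature names in the RefSeq table has the miR-494 seed, and the miR-329 seed recurs once, in miR-362-3p. Among the 34 locus miRNAs detected on every array, 32 matched a sequence, and these had 32 distinct seeds. Their share of G and C bases ran from 36.4% to 72.7% with a median of 46.5%, and miR-494 at 45.5% lay close to that median.

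Each array held 13715 spots and 1857 probes for miRNAs, and its number of miRNAs well above background ranged from 162 to 204 in control, from 181 to 221 in NMDA and from 166 to 206 in bicuculline arrays. A signal is given here as a percentage of the array scale, which is the 75th percentile of that array's signals over probes detected on every array, and a miRNA with several probes is represented by the brightest of them. The arrays came from 2 slides. Slide 1 held control 1 and 2, NMDA 1 and 2 and bicuculline 1, and slide 2 held the other 4 arrays. All 7 neuronal marker miRNAs were well above background on all arrays, and none of them passed the limma test in any comparison. Of the 7 miRNAs listed for astrocytes and other glia, miR-21 and miR-338-3p were detected on all arrays and miR-146a on 8. The other 4, miR-143, miR-145, miR-219 and miR-155, were detected on none. The summed signal of the list was 228 to 282% in control, 232 to 254% in NMDA and 236 to 271% in bicuculline arrays. The 6 microglia and blood markers were not well above background on any array, and of the endothelial and muscle markers only miR-1 was detected on all arrays. The endothelial marker miR-126-3p was detected on 5.

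The hippocampal neuron cultures expressed the locus broadly. Of the 59 locus miRNAs, 34 were well above background on all 9 arrays, which is 57.6%, against 122 of the 552 other mouse miRNAs, or 22.1%. These 552 include star strands, which the naming kept out of the 59, so the 2 shares are not of like sets. They also include 16 further miRNAs of the locus, 9 of them detected on all arrays. Of the 59, another 4 were detected on some arrays and 21 on none. Detection covered every stretch of the locus, with 1 of 2 miRNAs of the Meg3 stretch, 8 of 14 of the stretch over and just before the Rtl1 antisense transcript, both Rian miRNAs, and 23 of 41 from miR-379 to miR-410. Single arrays detected between 34 and 38 of the 59, with 34 to 36 in NMDA and 35 to 38 in bicuculline arrays. The much studied spine regulator miR-134 was not well above background on 8 of the arrays. Its brightest probe read 4.56, 4.14 and 4.20% in control, 4.06, 4.49 and 5.19% in NMDA and 4.86, 5.56 and 3.51% in bicuculline cultures, all under the floor of 7.94%, and it was not tested. miR-485, another regulator of synapses in the same cluster, was above background on 8 arrays, which made 35 locus miRNAs that could be tested in each comparison.

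NMDA raised 1 locus miRNA by the test, miR-494, while the 34 others tested did not pass. The miR-494 signal was 23.2, 23.3 and 30.2% in the control cultures, 54.8, 56.4 and 58.3% in the NMDA cultures, and 18.0, 27.8 and 29.4% in the bicuculline cultures. Every NMDA culture lay far above every control and bicuculline culture, whereas the control and bicuculline values overlapped. As means, this was 25.6% ± 3.99 (SD, n = 3) in control, 56.5% ± 1.74 (SD, n = 3) in NMDA and 25.1% ± 6.21 (SD, n = 3) in bicuculline cultures. Against control, miR-494 rose by 1.15 on the log2 scale (SE 0.12, 95% interval 0.88 to 1.43) or 2.22-fold, with a limma adjusted p of 3.3e-04 over 181 miRNAs tested. The rise was 1.26 within slide 1 and 0.95 within slide 2. The size of the rise depended on the processing. It was 0.84 after normexp background correction, and 0.73 with scaling to all probes, which moved the median of all miRNAs tested to -0.43, and limma adjusted p-values were 2.8e-04 and 0.014. From the authors' own log2 values the same change was 0.43, with a limma adjusted p of 0.0068. That limma fit covered the miRNAs tested here, whereas the study's own adjusted p for miR-494, from a t test, was above 0.05. With the summed total gene signal in place of the brightest probe the change was 1.10 and missed the threshold, with a limma adjusted p of 0.477, and it passed at 0.0087 once the slide was added as a block. With no filter on dim miRNAs, the limma adjusted p was 0.061.

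**Figure D1:**
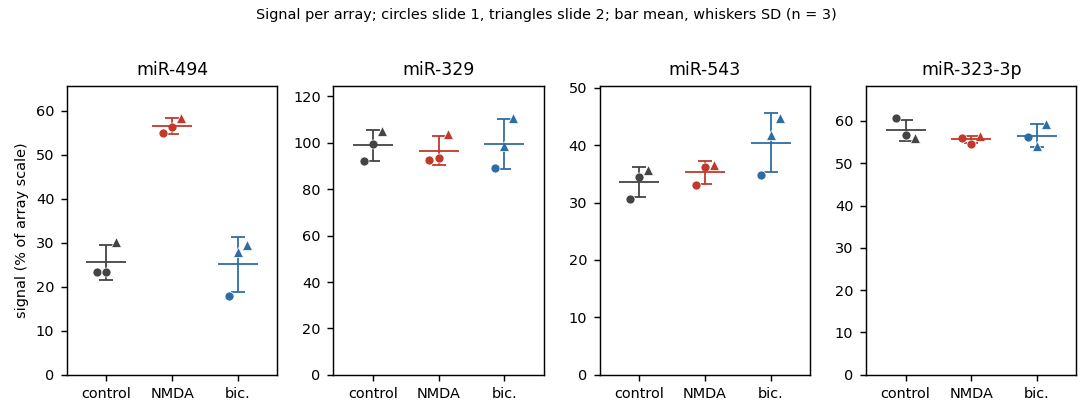
Signal of miR-494, miR-329, miR-543 and miR-323-3p on each array, in percent of the array scale, with each panel on its own axis from 0. Horizontal bars are means and whiskers SD over 3 cultures, and the 3 NMDA values of miR-494 sit between 54.8 and 58.3%, above all 6 other cultures, while the groups overlap in the other panels.

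A second probe for miR-494, dimmer and above background on 7 arrays, moved the same way. It read 9.39, 7.31 and 12.2% in control, 21.5, 23.9 and 20.2% in NMDA and 6.81, 11.3 and 11.0% in bicuculline cultures, with all 3 NMDA values again on top. Because control 2 and bicuculline 1 lay under the floor and were set to it, the NMDA change of this probe, 1.17 on the log2 scale, is a lower bound, and no exact change is given for bicuculline. Across the locus, 27 detected miRNAs had a further probe above background on all arrays, and the NMDA changes of these probes differed from those of the probe read by between -0.16 and 0.14. The array values set against the control mean put miR-494 apart within each NMDA culture as well, with values of 1.11, 1.15 and 1.20, above all 33 other locus miRNAs detected everywhere. The highest of these others reached 0.43 in NMDA 1, 0.43 in NMDA 2 and 0.27 in NMDA 3. In control 3 too miR-494 stood above the 33 others, at 0.25, and in bicuculline 1 it stood below them, at -0.50.

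**Figure D2:**
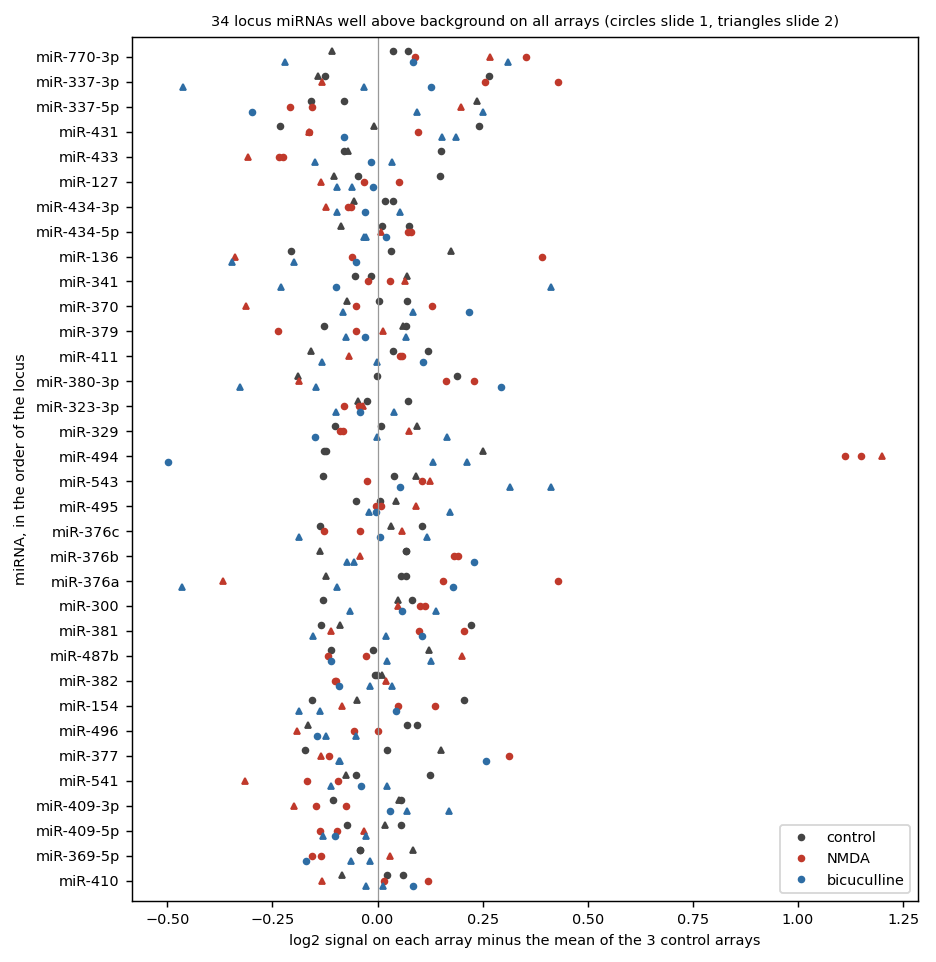
Log2 signal of the 34 locus miRNAs detected on all arrays, each culture set against the mean of the 3 control cultures and ordered along the locus. Circles are slide 1 and triangles slide 2, and the only points beyond 0.5 are the 3 NMDA cultures of miR-494.

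The count of 1 locus miRNA higher after NMDA out of 35 tested stands beside a background of 8.29% of the 181 miRNAs tested, or 15 miRNAs. Control 1 detected 162 miRNAs, so some of the 181 were tested through the NMDA arrays alone. The same holds against bicuculline, where bicuculline 3 detected 166. Of the 35 locus miRNAs, 34 were detected on all arrays, so the shares are not of like sets. No locus miRNA passed as lower, with a background of 0.0%. At an unadjusted limma p under 0.05, 2 locus miRNAs were higher and 1 was lower, against 9.39% and 1.66% of all tested. By the study's own criterion of a change by over 20%, 1 of 35 was raised, against 9.94% of all tested, and 0 were lowered, against 1.1%. The median change of the 35 was -0.0027 on the log2 scale, and that of all 181 was -0.011. The 34 others ranged from -0.26 to 0.24, and every 95% interval lay within a doubling or halving.

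The neighbours of miR-494 changed by between -0.05 and 0.07 after NMDA and did not pass the test. miR-329, whose hairpin comes just before, read 92.0, 99.3 and 105.3% in control and 92.8, 93.3 and 103.9% in NMDA cultures. Those groups overlapped, and the log2 change was -0.03 (SE 0.090, 95% interval -0.24 to 0.18). miR-543, a few hairpins on, read 30.7, 34.5 and 35.8% in control against 33.0, 36.2 and 36.6% in NMDA cultures, with a change of 0.07 (SE 0.092, interval -0.15 to 0.28). The next, miR-495, read 73.1, 76.1 and 78.0% in control and 76.2, 75.5 and 80.6% in NMDA cultures, which mingled. Its change was 0.03 with an interval of -0.15 to 0.21. miR-323-3p, on the other side, had 60.7, 56.7 and 56.0% in control against 56.0, 54.7 and 56.3% in NMDA cultures, again without separation. The intervals of all 4 end far below the 0.88 that bounds the miR-494 rise from beneath, though the differences between miRNAs were not tested.

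**Figure D3:**
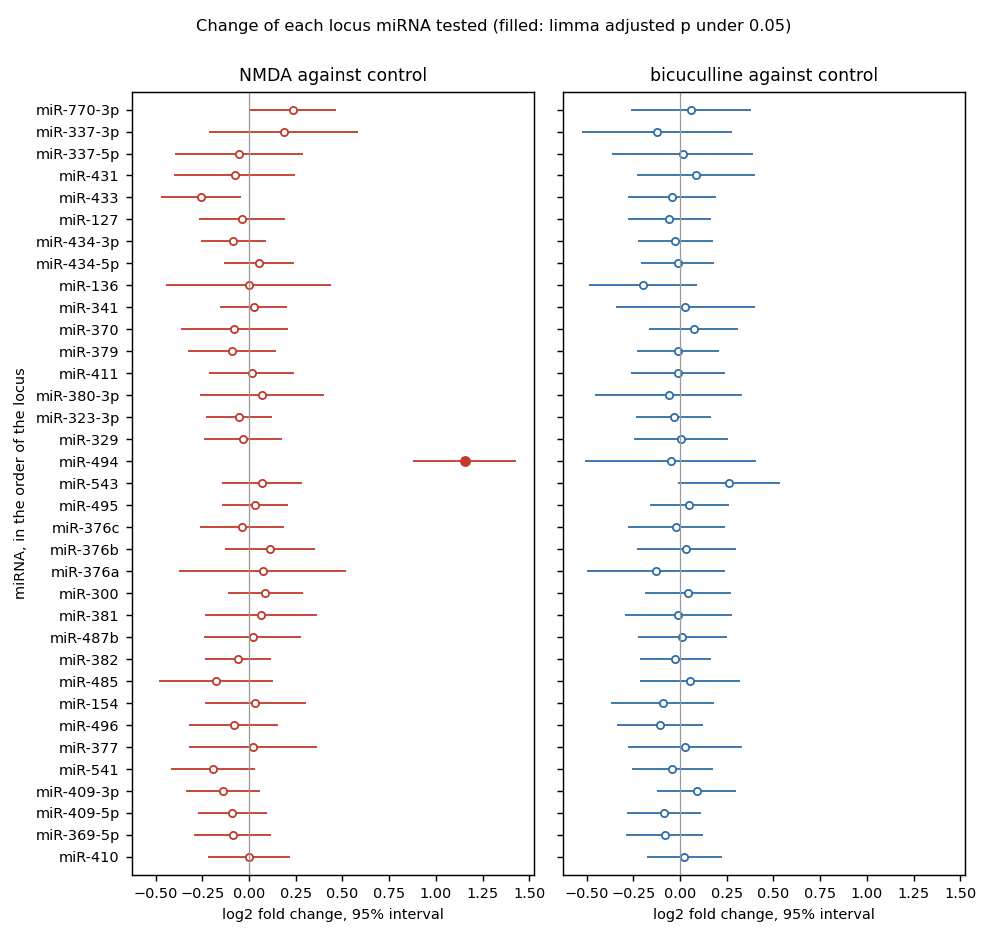
Log2 fold change of each of the 35 locus miRNAs tested with its 95% limma interval, in the order of the locus, for NMDA and bicuculline against control. The filled point marks a limma adjusted p under 0.05, which only miR-494 after NMDA has at 1.15, and all others lie between -0.26 and 0.26.

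Further along the miR-379 to miR-410 stretch, the other 23 miRNAs tested ranged from -0.19 to 0.11 after NMDA, and the median of all 24 was 0.01. The first of the stretch, miR-379, read 107.7, 94.0 and 107.0% in control and 99.2, 87.1 and 103.7% in NMDA cultures. As groups these overlapped, with a change of -0.09, although each NMDA culture read below the control culture of the same number. The last, miR-410, had 176.7, 172.1 and 159.9% in control against 184.0, 171.2 and 154.6% in NMDA cultures, where the changes of single cultures ran both ways and the fitted change was 0.00. miR-381 and miR-300, which are closely related in sequence, changed by 0.06 and 0.09. miR-376a, of the family known for A-to-I editing of its hairpins, was the most scattered, at 130.7, 131.8 and 115.5% in control and 169.2, 140.2 and 97.5% in NMDA cultures. Its change was 0.23 within slide 1 and -0.24 within slide 2, so the treated cultures lay above control on one slide and below it on the other. Its relatives miR-376b and miR-376c changed by 0.11 and -0.04. miR-485 read 9.09, 10.1 and 11.0% in control and 7.78, 8.38 and 10.6% in NMDA cultures, which overlapped, with the first NMDA value set to the floor for a change of -0.18 (SE 0.13).

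Toward the end of this stretch, miR-541 and miR-409-3p lay slightly lower after NMDA. miR-541 read 59.8, 67.6 and 58.8% in control, 55.2, 58.0 and 49.8% in NMDA and 60.3, 62.9 and 57.4% in bicuculline cultures. Each NMDA culture was below each control culture, but the change of -0.19 (SE 0.097) had a limma adjusted p of 0.615. miR-409-3p read 21.3, 23.8 and 23.8% in control, 20.7, 21.8 and 20.0% in NMDA and 23.4, 25.8 and 24.1% in bicuculline cultures. Its NMDA and control groups overlapped, with a change of -0.14 and a limma adjusted p of 0.917.

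Among the miRNAs that lie antisense to Rtl1, a gene they are known to silence, miR-433 had the steepest lower value of the locus. It read 84.1, 98.6 and 84.6% in control, 76.0, 75.5 and 71.8% in NMDA and 87.9, 80.2 and 91.0% in bicuculline cultures. All NMDA cultures lay below all others. The NMDA change was -0.26 (SE 0.091, 95% interval -0.47 to -0.04) and missed the threshold with a limma adjusted p of 0.251, while the change was -0.27 within slide 1 and -0.24 within slide 2. The star strand of the same hairpin, miR-433*, changed by 0.02. In this comparison 3 of 35 locus miRNAs, miR-433, miR-434-3p and miR-541, had NMDA cultures all below control, against a background of 5.52% of all tested, and 2, miR-494 and miR-770-3p, all above, against 9.39%. miR-434-3p read 335.6, 331.1 and 314.6% in control and 313.1, 311.4 and 300.4% in NMDA cultures, a narrow gap with a change of -0.09. The other arm of its hairpin, miR-434-5p, changed by 0.05. The long known miR-127 read 267.1, 305.9 and 256.7% in control and 269.9, 285.8 and 251.1% in NMDA cultures, which overlapped, with a change of -0.04.

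The remaining members of the Rtl1 stretch overlapped between control and NMDA. miR-136 read 73.1, 62.0 and 80.8% in control, 93.8, 68.6 and 56.6% in NMDA and 69.0, 56.3 and 62.4% in bicuculline cultures. Like miR-376a it went up within slide 1, by 0.25, and down within slide 2, at -0.51, for a fitted NMDA change of -0.00 with the wide interval of -0.45 to 0.44. miR-337-3p changed by 0.18 (SE 0.17), miR-337-5p by -0.05 and miR-431 by -0.08. The median of the 8 miRNAs tested in this stretch was -0.05.

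NMDA and control cultures of the same number deviated together and shared a slide, so the direction within each pair was read as well. Of the 35 locus miRNAs tested, 6 were higher in all 3 pairs, beside 18.2% of all 181 tested, and 10 were lower in all 3, beside 23.8%. Higher were miR-494, miR-770-3p, miR-337-3p, miR-434-5p, miR-376b and miR-543. Lower were miR-433, miR-434-3p, miR-337-5p, miR-379, miR-485, miR-496, miR-541, miR-409-3p, and also miR-409-5p and miR-369-5p, which are named here because their values put them in this count. With the replicate number as a block, miR-494 remained the only locus miRNA past the limma threshold, with an adjusted p of 0.0031, and miR-433 had one of 0.121.

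At the Meg3 end, miR-770-3p read 12.0, 12.3 and 10.9% in control, 12.5, 15.0 and 14.1% in NMDA and 12.4, 14.6 and 10.1% in bicuculline cultures. The NMDA cultures sat just above control, and the bicuculline cultures spread over both. Its NMDA change of 0.24 (SE 0.099) had a limma adjusted p of 0.437, and its other probes were not well above background on any array. The Rian miRNAs, miR-341 and miR-370, changed by 0.02 and -0.08.

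Bicuculline changed no locus miRNA by the test. None of 35 passed limma in either direction, while 0.621% of the 161 miRNAs tested passed as higher and 0.0% as lower. None had an unadjusted limma p under 0.05, beside 1.24% of all tested that were higher and 0.0% that were lower. None separated from control, beside 1.24% of all tested above and 1.86% below, and none changed by over 20%, beside 1.24% raised and 1.86% lowered. The methods' t-test also called 0 locus miRNAs. In these arrays miR-212, a miRNA driven by CREB and known to follow synaptic activity, rose by 1.98 with a limma adjusted p of 0.023. miR-132, also known to follow synaptic activity, rose by 0.64 and did not pass, with a limma adjusted p of 0.386. The locus changes ran from -0.20 for miR-136 to 0.26 for miR-543, with a median of -0.01 against -0.02 for all tested. The largest, miR-543, read 34.8, 41.8 and 44.7% under bicuculline. Of these, the lowest lay among the control values and the others above them. Its change of 0.26 (SE 0.12, 95% interval -0.01 to 0.53) had a limma adjusted p of 0.999, its further probe changed by 0.11, and within the slides the change was 0.10 and 0.27. miR-329 read 89.0, 98.7 and 110.7% and miR-323-3p 56.1, 54.0 and 59.4% under bicuculline, both overlapping the control range. miR-494 changed by -0.05 (SE 0.20, 95% interval -0.51 to 0.41). Both bicuculline cultures of slide 2 read higher than that of slide 1, and the change was -0.37 within slide 1 and -0.08 within slide 2. In all, each of the 34 other intervals lay within 1.5-fold.

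**Figure D4:**
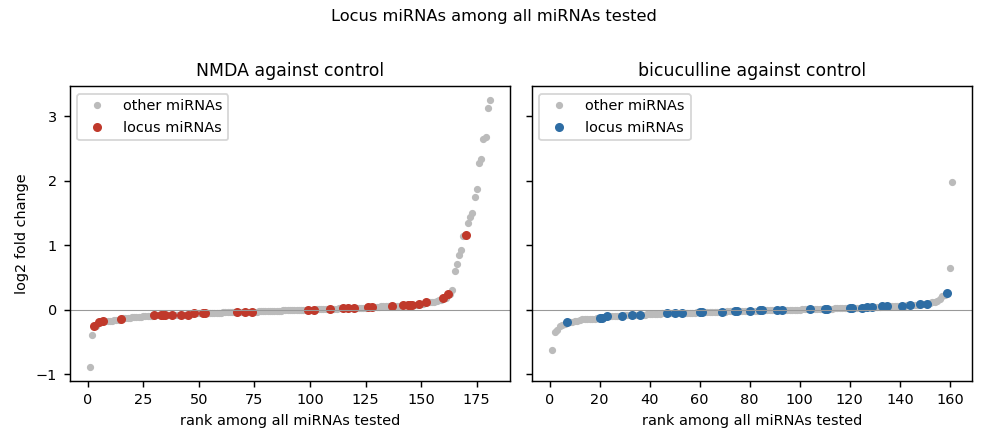
Log2 fold change of all miRNAs tested, ranked from lowest to highest, with the 35 locus miRNAs in colour. After NMDA, miR-494 at 1.15 lies on the steep upper end and the other 34 between -0.26 and 0.24, and after bicuculline all 35 lie between -0.20 and 0.26.

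Set directly against bicuculline, NMDA gave a higher level of miR-494 alone. The difference was 1.20 (SE 0.18, 95% interval 0.77 to 1.64) with a limma adjusted p of 0.0038, and 1.63 within slide 1 and 1.03 within slide 2. The call was lost with total gene signal, where the difference was 1.00 and the limma adjusted p 0.662, and with no filter, where the limma adjusted p was 0.242. Without NMDA replicate 1 the difference was 1.23 with a limma adjusted p of 0.069, and the methods' t-test gave an adjusted p of 0.073. Of all 181 tested, 8.29% were higher and 0.552% lower. No locus miRNA was lower by the adjusted test, and 2 were at an unadjusted limma p under 0.05, against 3.31% of all tested. These were miR-409-3p at -0.23 (limma adjusted p of 0.228) and miR-433 at -0.21 (limma adjusted p of 0.295). The NMDA cultures of both lay below all bicuculline cultures, where the background was 2.21%, and the authors' own log2 values took miR-409-3p past the threshold. miR-494 was the only one to lie wholly above, where the background was 11.0%.

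The array also held 16 locus miRNAs that the naming left out, 13 star strands and 3 later numbered ones. Of these, 9 star strands were above background on all arrays, and 0 passed limma in any of the 3 comparisons, at the adjusted or the unadjusted threshold. Their changes ran from -0.13 to 0.14 after NMDA and from -0.14 to 0.11 after bicuculline. For 11 hairpins both arms were measured. After NMDA the change of one arm less that of the other ranged from -0.28, for miR-433 less miR-433*, to 0.24, for miR-337-3p less miR-337-5p. After bicuculline it stayed between -0.15 and 0.18.

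Levels were also compared between the slides. On slide 2, 11 of the 34 locus miRNAs detected everywhere read higher in all 3 groups and 13 read lower, however small the difference, while 10 were mixed. That is 32.4% and 38.2%, beside 37.2% and 28.2% of all 156 miRNAs detected everywhere, and these shares were not tested. miR-337-5p was higher on slide 2 by 0.36, 0.38 and 0.47 in control, NMDA and bicuculline cultures. On the same log2 scale miR-380-3p was lower on slide 2, with values of -0.28, -0.38 and -0.53. miR-494 read higher on slide 2 by 0.38 in control, by 0.07 in NMDA and by 0.67 in bicuculline cultures. Control and NMDA cultures were spread over the slides in equal numbers, and with the slide as a block the NMDA rise of miR-494 was 1.15 as before, with a limma adjusted p of 6.9e-04. The bicuculline cultures were spread differently, and their change became -0.22, with a limma adjusted p of 0.997.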

How the data were processed

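The deposited scanner files hold a background-subtracted intensity for every spot from Agilent Feature Extraction (10.7.1.1 for slide 1, 10.7.3.1 for slide 2), without normalization across arrays. A further deposited table holds the authors' processed log2 value of each miRNA per array. The array design names the mm9 build, and RefSeq tables of GRCm38.p6 served for names, order and sequences. After 3278 outlier spots were left out, spots were averaged per probe, and a probe with at least 50% of spots so marked was called well above background. Each array was scaled to its 75th percentile, taken over 265 probes detected everywhere, and signals were floored at 7.94% of it and put on the log2 scale, which understates changes near the floor. A miRNA above background on all 3 arrays of a group was tested with limma 3.58.1 in R 4.3.3, two-sided, 2 groups at a time, with Benjamini-Hochberg adjustment over all miRNAs tested and a threshold of 0.05. The step was tested on simulated data. The locus miRNAs and marker lists were chosen with earlier results of these data known. miRNAs were named if they were the 4 markers of the set, passed a test, had one of the smallest p-values, were detected on all arrays (up to 30) or are much studied, and others were named after their values were seen. The number of arrays limits the precision, and p-values over 3 cultures measure only their spread. Replicates with the same number of NMDA and control deviated together over 156 miRNAs (correlations 0.36, 0.76 and 0.63). Each of these pairs shared a slide, so a pairing of cultures and a slide difference cannot be told apart. In the other comparisons, pairs on 1 slide had 0.59 and 0.72 (bicuculline against control) and 0.62 and 0.72 (NMDA against bicuculline). The pairs on different slides had 0.08 and -0.03, and these comparisons were not paired. The alternatives were other scalings, other summaries of a miRNA, another background correction, the authors' table, other floors and filters, the methods' t-test, a joint fit of the 3 groups, the replicate or slide as a block, and leaving out each array in turn.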

Additional observations from a re-analysis of the deposited data

How the results depend on the processing

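For bicuculline against control, 0 locus miRNAs were called under all 21 alternatives. For NMDA against control, 1 was called under 17 of 21. The calls were 2 with scaling to all probes (miR-494 higher and miR-433 lower), beside 14 higher and 4 lower of all 181 tested. With quantile normalization they were 4 (miR-494 higher, miR-409-3p, miR-409-5p and miR-485 lower), beside 13 higher and 11 lower. With total gene signal or no filter they were 0, beside 5 higher of 181 and 5 higher of 650. The median change of the locus became -0.43 with scaling to all probes, as did that of all miRNAs tested, and -0.11 with quantile normalization, against -0.14 for all. miR-494 changed by 1.10 (limma adjusted p = 0.477) with total gene signal, 1.15 (0.061) with no filter, 0.84 with normexp and 0.73 with scaling to all probes. For NMDA against bicuculline, the calls were 29 with scaling to all probes (1 higher and 28 lower). Of all 181 tested, 16 were higher there and most were lower, so lower calls were not particular to the locus. With quantile normalization they were 4 (1 higher and 3 lower), beside 13 higher and 9 lower. With the authors' table they were 2 (1 higher and 1 lower), beside 15 higher and 2 lower. They were 0 with total gene signal (beside 7 higher and 1 lower), no filter (8 higher of 650) or the methods' t-test (9 higher and 1 lower). The median was -0.48 with scaling to all probes, beside -0.47 for all miRNAs, and -0.18 with total gene signal, beside -0.14. miR-494 was 1.00 (adjusted p = 0.662) with total gene signal, 1.20 with no filter (0.242) or the methods' t-test (0.073), and 1.63 within slide 1. Scaling to all probes turned the sign of miR-127 to -0.46, miR-434-5p to -0.41, miR-411 to -0.45, miR-376b to -0.40, miR-300 to -0.44, miR-381 to -0.41, miR-487b to -0.47 and miR-496 to -0.46, each near the shift of all miRNAs.

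Leaving out 1 array at a time, the calls were 1 for NMDA against control, 0 for bicuculline and 0 to 1 for NMDA against bicuculline, and miR-494 ranged from 1.09 to 1.28, from -0.18 to 0.17 and from 0.98 to 1.34. With the replicate block, miR-494 was 1.15 (limma adjusted p = 0.0031) for NMDA against control and 1.20 (0.0011) against bicuculline, and the block changed no count of locus calls. The values of the 32 other named locus miRNAs under the alternatives numbered 2205, of which 2020 moved by less than the spread of replicates and 390 had another sign. The total gene signal with the slide as a block and the values within slides were chosen after seeing the data. The normexp correction was run on the median spot signal. The causes were not tested. Signal over background limits the test to 35 of the 59 locus miRNAs.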
